A study of Citrus unshiu with 2 samples.

Results

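Genes whose exons carried methylation in all sequence contexts, with a high level in CHH, were described in shoots of Citrus unshiu, the satsuma mandarin. The genes were chosen by measured values: the level of the exons, averaged over the 2 bisulfite libraries of the series, had to be at least 20% in the CHG context and at least 10% in the CHH context, with H for A, C or T. The rule was met by 3199 of the 29073 genes listed for both libraries, and these are called CHH-rich genes here. The libraries are 1 from trees under light drought for 75 days, in which the soil was left to dry to around 15% moisture, and 1 from trees under normal water. Both are from mature stems of shoots, and 20 trees were chosen for each condition. How many trees gave DNA to a library is not stated in these sources.

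Methylation in plants is kept by separate routes, known best from Arabidopsis. MET1 copies CG methylation at replication, chromomethylase CMT3 keeps CHG methylation together with histone H3 lysine 9 methylation, and CHH methylation is set anew by RNA-directed DNA methylation and by the chromomethylase CMT2. Expressed plant genes often carry CG methylation alone in their bodies, while transposons carry all contexts, and gene annotations commonly hold transposon genes under ordinary identifiers. The working name of the set, transposon-like, rests on this pattern. The tables give no product for any gene and no list of transposons was used, and 0 of the 3199 identifiers matched the reference gene table, so which of these genes lie in transposons was not analysed here. No sequences are shown, since no genome of the tables' build was used here.

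Levels are the authors' percentages of methylated cytosine per gene feature. Each condition has 1 library, so there is no spread between replicates and no test between conditions was made. SDs are over genes, which are not replicates. The tables hold no read counts, so the depth behind a level is unknown and intervals were left out. A 0 can mean an unmethylated feature, one that the gene lacks or one without covered cytosines, and a 0 in 1 library beside a high level in the other cannot come from a lacking feature. A level averages over all cells of the stem, so that fewer cells with a methylated site and a lower level in each cell cannot be told apart.

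Where a level above 0 was listed in both libraries, the median levels of the CHH-rich genes were similar in exons, introns and flanks. Means over the whole set, zeros included, were lower in the flanks, with promoter CHG at 64.6% and 64.1% and downstream CHG at 60.6% in either library. By the rule their exons had to be rich in CHG and CHH, and their exon levels are given as a description. The mean exon level stood at 79.2% under light drought, against 79.6% under normal water in CHG, and 20.8% and 18.8% in CHH. CG was not used by the rule, and exon CG averaged 82.5% under light drought, against 82.2% under normal water. Introns had almost the same levels as exons where they were listed above 0 in both libraries. There the CG median over 1475 genes was 90.7% under light drought, against 90.5% under normal water. For CHG (1645 genes) the medians were 84.4% and 84.8%, and for CHH (1766 genes) 19.0% and 17.4%, in the same order. Promoters of the CHH-rich genes reached CG medians of 85.9% under light drought, against 85.4% under normal water over 2887 genes. Their CHG medians were 78.6% and 78.2% over 2918 genes, and their CHH medians 19.9% and 17.6% over 2971. Downstream flanks had CG medians of 87.3% and 87.0%, CHG medians of 80.6% and 80.4%, and CHH medians of 20.4% and 18.3%. UTRs are likewise given only where a level above 0 was listed in both libraries, so unmethylated UTRs are left out. They had CHG medians of 80.0% and 78.7% in 220 5' UTRs and 80.0% in either library in 233 3' UTRs. Their CHH medians were 16.6% and 14.9% in 5' UTRs and 18.1% and 15.6% in 3' UTRs.

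**Figure D1:**
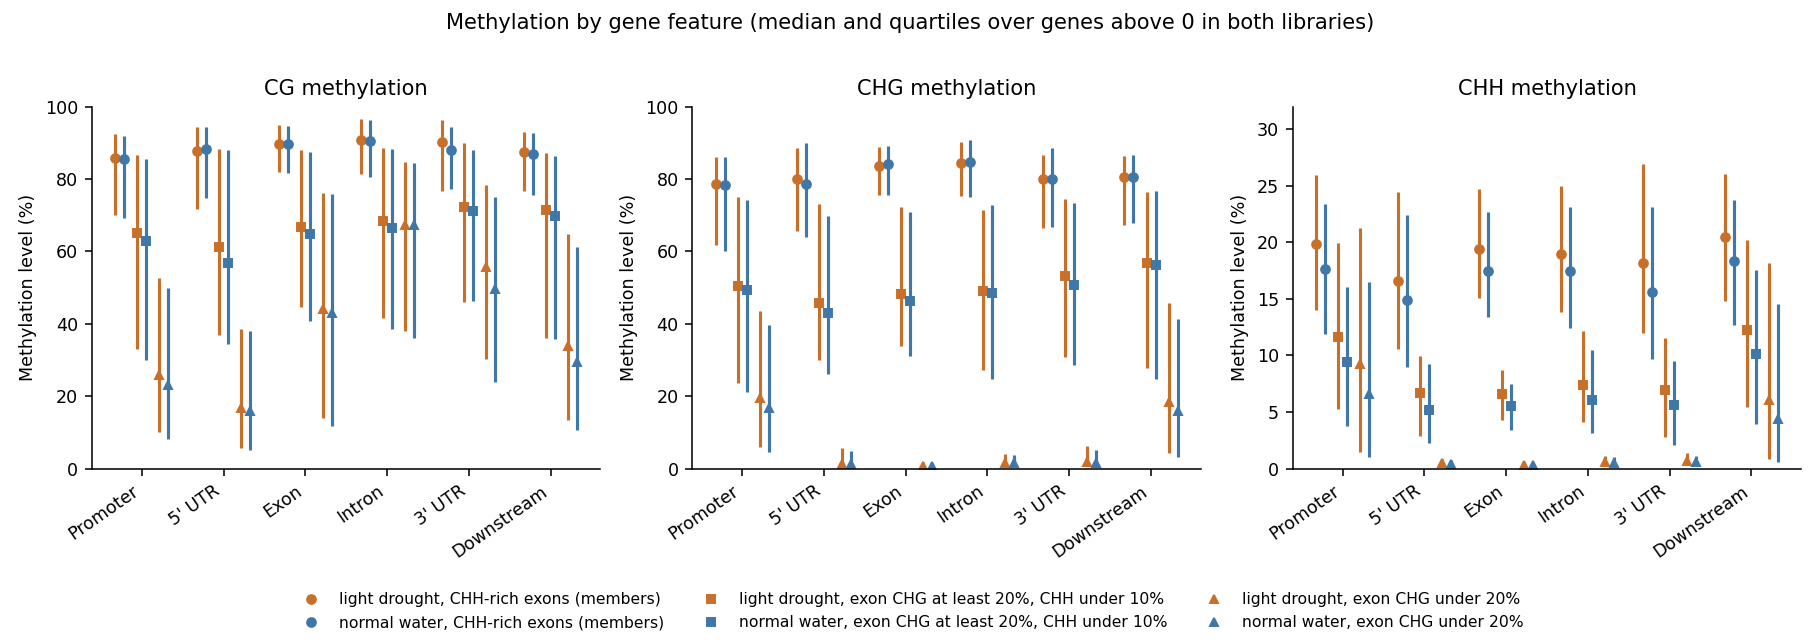
Methylation level in percent (y axis) by gene feature (x axis) in CG, CHG and CHH, for CHH-rich genes (circles), genes with exon CHG of at least 20% but CHH under 10% (squares) and genes with exon CHG under 20% (triangles), with light drought in orange left of normal water in blue. Points are medians and lines run between the quartiles over genes above 0 in both libraries. CHH-rich genes stay near 80% in CHG and between 14.9% and 20.4% in CHH across all 6 features, and the CHH scale differs from the others.

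The remaining genes were split by the same exon levels. Another 1258 genes had exon CHG of at least 20% but exon CHH under 10%, and 24616 genes had exon CHG under 20%. Among the 4457 genes with exon CHG of at least 20%, the CHH-rich genes made up 71.8%. The reverse case, CHH of at least 10% with CHG under 20%, was met by 100 genes, so 97.0% of all genes with CHH-rich exons also passed in CHG. The 1258 genes poor in CHH were intermediate in exon CG and promoter CHG, which the rule did not use. They were not in intron CG, where the mean with zeros kept was 29.3% in either library. Genes with exon CHG under 20% had 31.1% and 30.7% there. The exon CG median was 89.7% and 89.5% in the CHH-rich genes under light drought and normal water, and 66.7% and 64.7% in the genes poor in CHH. Promoter CHG had medians of 78.6% and 78.2% in the CHH-rich genes, and 50.5% and 49.5% in those poor in CHH. Genes with exon CHG under 20% had a promoter CHG median of 19.6% under light drought, against 16.7% under normal water. All these medians are over genes above 0 in both libraries, which were 17030 of the 24616 for promoter CHG in this last set. With zeros kept, its promoter CHG medians were 7.62% and 6.155%. They were then 41.3% and 37.5% in the genes poor in CHH, and 76.65% and 76.37% in the CHH-rich genes. These sets were made from methylation levels in the same libraries, so no test of their differences was made.

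CG and CHG were high in most CHH-rich genes, while CHH was spread over a wide range above its threshold. Exon CHG averaged over both libraries was 80% or more in 2013 genes, or 62.9%, and under 40% in 78. Exon CG was 80% or more in 2375 genes, or 74.2%, and under 20% in 105, of which 87 were listed at 0 in both libraries. CHG stood above CG in 839 genes, or 26.2%. The median CHH level was 23.3% of the CHG level, against 11.2% in the 1258 genes poor in CHH, where the rule sets the difference. By CHH level, 947 genes lay between 10 and 15%, 956 between 15 and 20%, 1051 between 20 and 30%, 183 between 30 and 40%, and 62 at 40% or more. Across genes, CHH went with CHG only weakly (Pearson's r = 0.227 over 3109 genes above 0 in both libraries) and less with CG (r = 0.0758 over 3023 genes), while CHG and CG went together (r = 0.588 over 3011 genes). These are correlations across genes of the same libraries, and a cut on both levels narrows their range. CHH in exons and introns of the same gene had r = 0.574 (1757 genes), and CHH in exons and promoters r = 0.305 (2934 genes).

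The 62 genes with exon CHH of 40% or more differed in their surroundings from the 1051 genes between 20 and 30%. Promoter CHG averaged 48.9% under light drought, against 45.2% under normal water in them, while it was 71.2% and 70.8% in the larger class. CHG reached 20% in both flanks in 45.2% of these 62 genes and in neither flank in 19.4%, against 76.6% and 3.33% of the larger class. Only 7 of the 62, or 11.3%, lay on unplaced sequence, against 38.3%. The highest exon CHH level was that of Cs8g06950, with 86.9% under light drought, against 83.6% under normal water, where CHG stood at 89.3% and 89.2%. Its promoter CHH was 21.9% and 15.9%, and its downstream CHG was listed at 0 in both libraries. Cs8g16370 had exon CHH of 83.3% under light drought, against 80.7% under normal water, Cs9g11450 79.2% and 81.5%, and Cs1g20640 74.9% and 79.7%. In each of these 4 genes exon CG was at least 73.6% and exon CHG at least 85.0% in both libraries, while downstream CHH was at most 3.64%. Cs5g29740 is unlike them, since its exons had CHH of 82.9% and 81.4% while CG was listed at 0 in both libraries and CHG at 0 under light drought and at 100% under normal water. In 5 genes of the set the average exon CHH exceeded CHG.

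Few CHH-rich genes had a UTR level above 0. No UTR level above 0, in any context or library, was listed for 2833 of them, or 88.6%. The share was 70.7% in the genes poor in CHH and 35.5% in genes with exon CHG under 20%. Whether such a gene lacks an annotated UTR or has an unmethylated one is not told apart by a level of 0. An intron level above 0 was listed for 1894 CHH-rich genes, or 59.2%, against 65.3% of the genes with exon CHG under 20%. The 366 CHH-rich genes with a UTR level had exon CHG of 74.9% under light drought, against 76.3% under normal water, and the 2833 without one 79.8% and 80.0%. Their exon CHH was 20.1% and 17.6%, against 20.9% and 18.9%. With and without a listed intron the exon CHH means were 20.6% and 18.6%, and 21.2% and 19.0%, so the level in exons moved little with either feature.

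The CHH-rich genes were unevenly spread along every numbered chromosome. Identifiers of numbered chromosomes follow the coordinates, since all 2937 neighbouring genes with an exonic or intronic region in the deposited tables were in increasing order, and gene order was therefore used in place of coordinates. When the genes of each chromosome were cut into 10 equal parts in this order, the share of CHH-rich genes reached 27.9% in the fifth part of chromosome 5, with 98 of 351 genes, and 26.6% in the seventh part of chromosome 4. It reached 25.2% on chromosomes 2 and 7, 24.1% on chromosome 8, 21.9% on chromosome 6, 21.8% on chromosome 3, 21.3% on chromosome 1 and 18.2% on chromosome 9. The lowest parts held between 1.07% on chromosome 9 and 2.84% on chromosome 5. On chromosomes 3 and 6 the share was high in the first part, with 15.2% and 21.9%, and on the other 7 chromosomes it was at most 4.49% there. Over whole chromosomes the share ran between 6.26% on chromosome 9 and 11.5% on chromosome 8. Unplaced sequence held 1079 of the 3199 genes, and 18.8% of its 5749 genes belonged to the set.

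**Figure D2:**
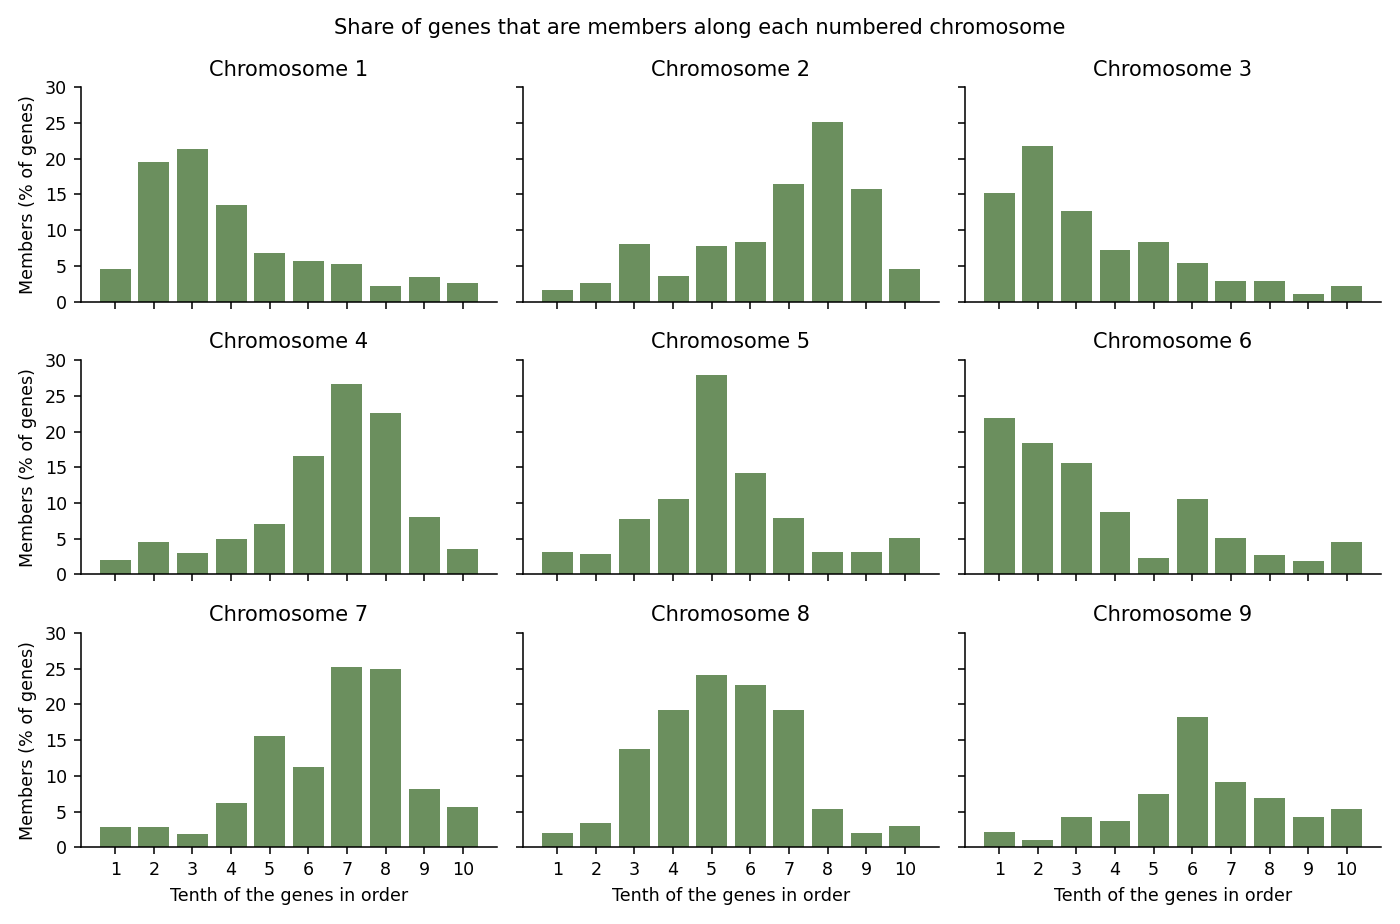
Share of genes that are CHH-rich, in percent (y axis), in 10 equal parts of the genes in identifier order (x axis) on each of the 9 numbered chromosomes. The highest part of a chromosome lies between 18.2% on chromosome 9 and 27.9% on chromosome 5, and the lowest between 1.07% and 2.84%.

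Neighbours were often CHH-rich together. Of 2117 CHH-rich genes with a next gene on a numbered chromosome, 666 were followed by another one, or 31.5%, where 9.09% of all genes on these chromosomes belonged to the set. There were 143 runs of 3 or more in succession, which held 547 genes, and 1049 genes stood alone. Genes in runs of 3 or more had mean promoter CHG of 72.1% under light drought, against 72.3% under normal water, while those alone had 59.98% and 58.4%. Exon CHG was 81.1% and 82.0% in runs, and 78.1% and 78.5% alone. The longest run, singled out after its length was known, had 13 genes from Cs2g25880 to Cs2g26000 on chromosome 2. Its promoters had CHG between 79.0 and 91.6% under light drought and between 71.5 and 91.1% under normal water, and CHH between 15.0 and 24.2% and between 14.3 and 24.3%. Promoter CHH was higher under light drought in 6 of these 13 genes and lower in 7, with means of 20.7% in either library. Flanking windows of neighbouring genes can overlap, so the values in a run are not independent.

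The flanks divided the set unevenly. With an average of at least 20% in CHG taken as methylated, both flanks were methylated in 2283 CHH-rich genes, or 71.4%, the promoter alone in 504, the downstream flank alone in 272 and neither in 140, or 4.38%. A flank listed at 0 counts as unmethylated here, which includes 204 promoters and 491 downstream flanks at 0 in CHG in both libraries. In the genes poor in CHH the shares for both and for neither were 42.1% and 16.5%, and in genes with exon CHG under 20% they were 8.79% and 53.1%. Among genes with CHG above 0 in both flanks and both libraries, the lowest summed flank CHG was that of Cs2g11180, Cs9g14630 and Cs1g19330. Cs9g14630 had promoter CHG of 4.35% under light drought, against 7.44% under normal water and downstream CHG of 5.83% and 3.65%, next to exon CHG of 43.8% and 47.7% and exon CHH of 18.5% and 14.3%. Cs1g19330 had exon CHH of 40% under light drought, against 10% under normal water beside promoter CHG of 15.3% and 7.14%. The exons of Cs2g11180 had 80.0% in CHG and 20.0% in CHH under light drought and were listed at 0 in both contexts under normal water, while its promoter CHG stood at 1.67% and 2.94%.

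The series asks how methylation differs when flowering branches are induced by light drought. In the CHH-rich genes the CHH level was higher under light drought in every compartment, while mean CG and CHG levels differed by at most 0.648 points in exons, promoters and downstream flanks. Exon CHH differed by 2.05 points on average, at 20.8% under light drought, against 18.8% under normal water, with a median of 1.68 points. Promoter CHH differed by 2.33 points, at 19.2% and 16.9%, and downstream CHH by 1.93 points, at 17.8% and 15.8%. Intron CHH differed by 1.95 points over the 1766 genes above 0 in both libraries, at 20.3% and 18.4%, and by 1.07 points when genes listed at 0 were kept. Over genes above 0 in both libraries the SD of these differences lay between 4.68 points in promoters and 6.90 points in introns. Exon CHH was higher in 2232 of 3149 such genes, or 70.9%, and promoter CHH in 78.5% of 2971. The same shares over all genes of the tables were 64.2% for exons and 76.2% for promoters. The mean promoter difference was 2.33 points in the CHH-rich genes and 2.40 points over all genes, and the medians were 1.76 and 0.95 points.

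In CHG the exon level stood at 79.2% under light drought, against 79.6% under normal water. The mean difference was -0.35 points, and 46.5% of 3119 genes above 0 in both libraries were higher. Promoter CHG differed by 0.52 points, at 64.6% and 64.1%, with a median of 0. Exon CG differed by 0.24 points with a median of 0, and the sign turned to -0.30 points in the 1288 genes that pass stricter levels of 30% in CHG and 20% in CHH. The differences in CG, CHG and CHH of the same exons were at most weakly related across genes. They had r = 0.157 between CHG and CG over 3011 genes, r = 0.127 between CHH and CHG and r = 0.00204 between CHH and CG.

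**Figure D3:**
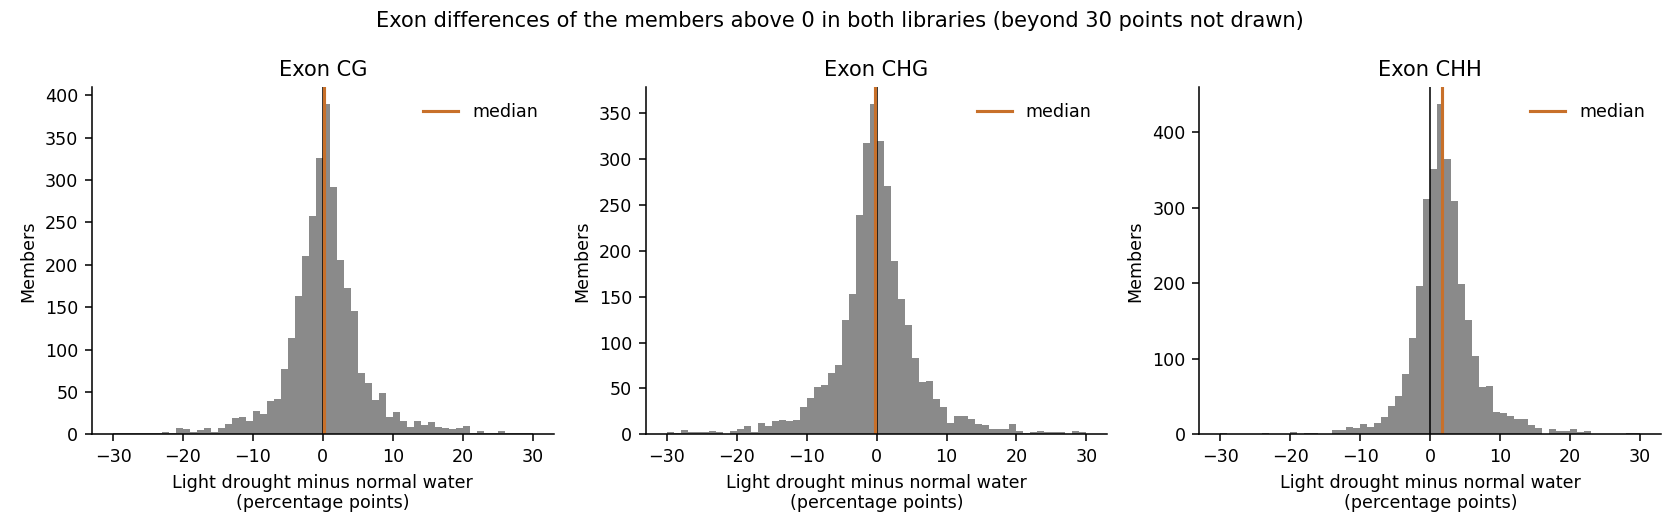
Number of CHH-rich genes (y axis) by how far the exon level under light drought stood above that under normal water, in percentage points (x axis), in CG, CHG and CHH, for genes above 0 in both libraries. The orange line is the median, which lies at 0.13 points in CG, -0.26 points in CHG and 1.68 points in CHH, and the black line marks 0.

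CHH differences in separate compartments of a gene were nearly unrelated. Among 1405 CHH-rich genes with CHH above 0 in exon, intron, promoter and downstream flank in both libraries, 498 were higher in all 4 under light drought, or 35.4%, and 10 were lower in all 4. The same shares over all genes were not counted. The single compartments were higher in 74.6% (exon), 68.8% (intron), 79.1% (promoter) and 78.4% (downstream) of these genes. The exon difference had r = 0.048 with the promoter difference over 2934 genes, and r = 0.0828 with the intron difference over 1757 genes.

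In proportion to normal water, the CHH difference was smaller in the CHH-rich genes than in the other sets in all 6 features. Over genes above 0 in both libraries it came to 10.5% of the normal water mean in exons, 10.6% in introns, 13.9% in promoters, 12.2% in downstream flanks, 12.4% in 5' UTRs and 12.7% in 3' UTRs. In the genes poor in CHH it came to between 18.5% in exons and 22.5% in 5' UTRs, and in genes with exon CHG under 20% to between 20.8% in 5' UTRs and 25.2% in promoters. Exon CHH of that last set was near the floor, at 0.668% and 0.539%, a difference of 0.129 points. No conversion rate is given, so proportions of such low levels are uncertain. In points the exons of CHH-rich genes differed more, by 1.97, against 1.02 in the genes poor in CHH. Exon CHH is also a value that the rule used. A gap to the genes with exon CHG under 20% remained between promoters of like CHH level. Promoters with an average CHH of 20 to 30% differed by 2.68 points in the 966 CHH-rich genes, at 25.4% under light drought, against 22.8% under normal water, with an SD of 4.10 points over genes. In the 2661 genes with exon CHG under 20% the same class differed by 5.54 points, at 27.3% and 21.8%, with an SD of 6.42. Between 15 and 20% the differences were 2.10 points in 653 CHH-rich genes and 4.28 points in 2032 genes of low exon CHG, and between 10 and 15% 2.02 and 3.61 points. At 30 to 40% they were closer, at 5.20 points in 263 genes and 6.10 points in 1263, and at 40% or more they were 5.24 points in 82 genes and 6.16 points in 973. Promoters of the genes poor in CHH differed by 1.77 points between 5 and 10%, against 1.58 in CHH-rich genes. Their differences were 2.47 points between 10 and 15%, 4.11 between 15 and 20%, 3.50 between 20 and 30% and 6.07 between 30 and 40%. At 40% or more they differed by 4.85 points in 27 genes, below the CHH-rich genes. Below 5% the difference was 0.741 points in 184 CHH-rich genes and 0.465 points in 8629 genes of low exon CHG, but levels were not alike there, and in proportion to normal water these were 36.0% and 37.0%. Downstream flanks of 20 to 30% differed by 2.39 points in 986 CHH-rich genes and 4.87 points in 1663 genes of low exon CHG. Promoter CHG over all genes of each set was higher in the CHH-rich genes, as given above, and its part in the gap was not tested.

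**Figure D4:**
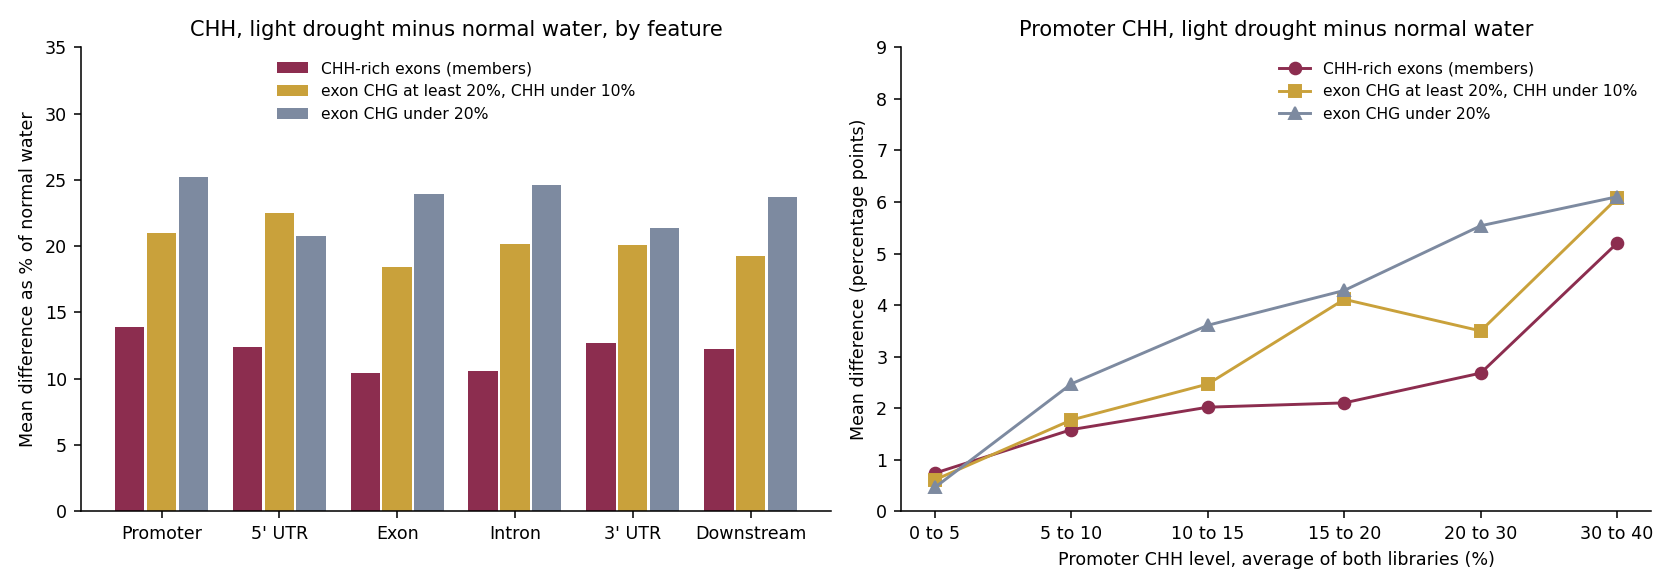
Left, the mean CHH difference, light drought minus normal water, as a percentage of the normal water mean (y axis) by feature (x axis). Right, the mean promoter CHH difference in percentage points (y axis) by the promoter's CHH level averaged over both libraries (x axis). CHH-rich genes, in dark red, lie lowest in all features and in all level classes from 5 to 40%, and highest in points below 5%, where their level is also higher. On the left, exon CHH of genes with exon CHG under 20% is near the floor, at 0.668% and 0.539%.

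Within the set, the difference in points was larger where the level was higher. Exon CHH differed by 1.66 points between 10 and 15%, at 13.5% under light drought, against 11.8% under normal water, by 2.15 points between 20 and 30%, and by 6.02 points at 40% or more, at 53.8% and 47.7%. In proportion to normal water these were 14.1%, 9.35% and 12.6%, with no steady order. In the top class the 61 genes above 0 in both libraries differed by 4.81 points, at 53.3% and 48.5%. The 133 genes with neither flank methylated and exon CHH above 0 in both libraries differed by 3.42 points, at 23.1% and 19.7%. The 2258 such genes with both flanks methylated differed by 1.84 points, at 20.8% and 18.9%. Median exon CHH was 18.98% and 16.85% with neither flank methylated, and 19.68% and 17.77% with both, so the groups were closer by medians. By chromosome, exon CHH differed by between 0.757 points on chromosome 9, at 21.3% under light drought, against 20.6% under normal water over 117 genes, and 3.17 points on chromosome 1, at 22.5% and 19.4% over 226 genes. Promoter CHH ran the other way on chromosome 9, where its difference was the largest of the chromosomes at 3.11 points. No chromosome had a lower mean under light drought in either feature. Chromosome means keep genes listed at 0 in 1 library. Such a gene on chromosome 9 is Cs9g11400, with exon CHH of 0 under light drought, against 40% under normal water.

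By a fixed size of 10 points, exon CHH was higher under light drought in 188 CHH-rich genes, or 5.88%, and lower in 69, or 2.16%. Over all 29073 genes 0.898% were higher and 0.43% lower by this size. A gene with an average under 5% cannot differ by 10 points, so the background is low for exons and introns, most of which carry little CHH. Of the exons counted in the set, 30 and 20 were listed at 0 in 1 library. In the genes poor in CHH the exon shares were 2.70% and 2.78%. Promoter CHH was higher by this size in 157 genes, or 4.91%, where the background was 6.36%. It was lower in 37, or 1.16%, with a background of 0.729%. Of these promoters, 21 of the higher and 21 of the lower were listed at 0 in 1 library. Promoter shares in the genes poor in CHH were 5.41% and 1.11%. Intron CHH was higher in 158 genes, or 4.94%, with a background of 1.04%, and lower in 78, or 2.44%, with a background of 0.447%. Of these introns, 37 and 39 were listed at 0 in 1 library. Shares in the genes poor in CHH were 1.59% and 1.51%. Downstream CHH was higher in 122 genes, or 3.81%, equal to the background of 3.81%, and lower in 53, or 1.66%, against 0.626%. Of these flanks, 17 of the higher and 21 of the lower were listed at 0 in 1 library. Downstream shares in the genes poor in CHH were 4.37% and 0.795%. Exon CHG was higher by 20 points in 71 genes, or 2.22%, and lower in 87, or 2.72%, with backgrounds of 0.709% and 0.729%. These backgrounds are low too, since a gene with an average under 10% cannot differ by 20 points. In the 1258 genes poor in CHH, 8.35% were higher and 7.55% lower in exon CHG by this size. Of the CHH-rich genes counted, 37 and 43 were listed at 0 in 1 library. Exon CG was higher in 82 genes and lower in 82, or 2.56% each, with backgrounds of 1.55% and 0.973%, and 36 and 44 of them were listed at 0 in 1 library. The shares in the genes poor in CHH were 8.11% and 6.52%. Promoter CHG was higher by 20 points in 74 genes, or 2.31%, with a background of 2.08%, and lower in 56, or 1.75%, with a background of 1.2%. Downstream CHG was higher in 53 genes, or 1.66%, where the background was 1.5%, and lower in 59, or 1.84%, where it was 0.977%. Promoter CG was higher in 68 genes, or 2.13%, with a background of 2.63%, and lower in 72, or 2.25%, with a background of 1.65%. Downstream CG was higher in 84 genes, or 2.63%, with a background of 3.67%, and lower in 56, or 1.75%, with a background of 1.61%. Counts by size include differences that the sampling of reads alone can make.

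The largest exon CHH differences among genes above 0 in both libraries are named. Cs1g15230 had exon CHH of 67.7% under light drought, against 29.0% under normal water, while its CHG was 88.9% and 89.1% and its CG 95.0% and 97.8%. Cs3g15730 had 41.2% under light drought, against 8% under normal water, with CHG at 65.7% and 60% and CG listed at 0 in both. Cs5g15960, orange1.1t01938 and Cs5g17700 had 56.1% and 20.0%, 40% and 6.37%, and 44.0% and 11.9% in the same order, but in each of them CHG was listed at 0 in 1 library. In the other direction, Cs6g15260 had 22.6% under light drought, against 68.6% under normal water, with CHG at 67.0% and 81.6% and CG at 75% and 0. Cs7g30130 had 7.18% and 30.3% with CHG at 95.4% and 88.8%, so that CHH was lower and CHG higher there. Cs6g06600 (10.6% and 40%), Cs3g19980 (33.2% and 62.5%) and Cs5g22530 (4.76% and 28.6%) again had CHG at 0 in 1 library. Of these 10 genes, 8 had exon CG or CHG listed at 0 in a library, and 6 held no CHH region in the deposited tables.

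Promoter CHH differed most in orange1.1t02155, with 93.3% under light drought, against 8.82% under normal water, where promoter CHG was listed at 0 and at 80.4%. Cs6g04170 had 78.6% under light drought, against 29.4% under normal water at a promoter CHG of 82.8% and 80.0%, and orange1.1t05050 had 58.3% and 10.2%. Promoter CHH was lower by most in Cs7g01030, with 45.2% under light drought, against 85.7% under normal water, followed by Cs3g07190 with 32.3% and 60% and Cs1g20040 with 36.1% and 63.1%. Exon CHH of Cs7g01030 went the other way, at 27.5% and 24.5%. Only orange1.1t05050 and Cs7g01030 of these 6 genes held CHH regions in the deposited tables, with 2 each.

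The authors' deposited tables of differentially methylated regions, which compare the libraries and give the gene feature of each region, were read for the CHH-rich genes. In CHH, 6023 regions were assigned to 2148 of these genes, or 67.1%, where 46.2% of all genes held one. Of these regions 4720, or 78.4%, were higher under light drought, close to the 80.2% of all CHH regions. Their median length was 44 bp, and the median difference was 18.1 points in regions that were higher and -16.3 points in those that were lower. In CHG, 283 regions fell on 239 genes, or 7.47%, with a background of 5.54% of all genes, and 56.2% were higher under light drought, against 61.6% of all CHG regions. In CG, 126 regions fell on 114 genes, or 3.56%, where the background was 5.8%, and 87 of them were higher. Among the genes poor in CHH, a region was held by 60.7% in CHH, 19.7% in CHG and 11.3% in CG. No region was assigned to 984 of the CHH-rich genes, or 30.8%. The share of all genes without a region was not counted.

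By feature, CHH-rich genes held 1277 of the 2178 exonic CHH regions of the deposited table, or 58.6%, and 7.30% of all CHH regions. The first share follows from the choice of genes with CHH in their exons. Of the exonic regions 987 were higher under light drought and 290 lower, or 77.3% higher, against 73.7% of all exonic CHH regions. Promoters held 2407 CHH regions, 79.1% of them higher, against 82.4% of all promoter CHH regions. Downstream flanks held 1987, 79.0% of them higher, against 81.6% of all downstream ones. Exonic CHG regions were balanced, with 64 higher and 61 lower, while 62.7% of all exonic CHG regions were higher. Downstream there were 32 higher and 31 lower, and 64.8% of all downstream CHG regions were higher. In promoters 60 were higher and 30 lower, or 66.7% higher, near the 65.0% of all promoter CHG regions. An exonic CHG region was held by 3.22% of the CHH-rich genes and by 13.9% of the 1258 genes poor in CHH, where 151 such regions were higher and 87 lower. The sign of an exonic region was that of the gene's exon level in 80.1% of 1276 pairs in CHH, 81.6% of 125 in CHG and 86.0% of 43 in CG. Both come from the same libraries.

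**Figure D5:**
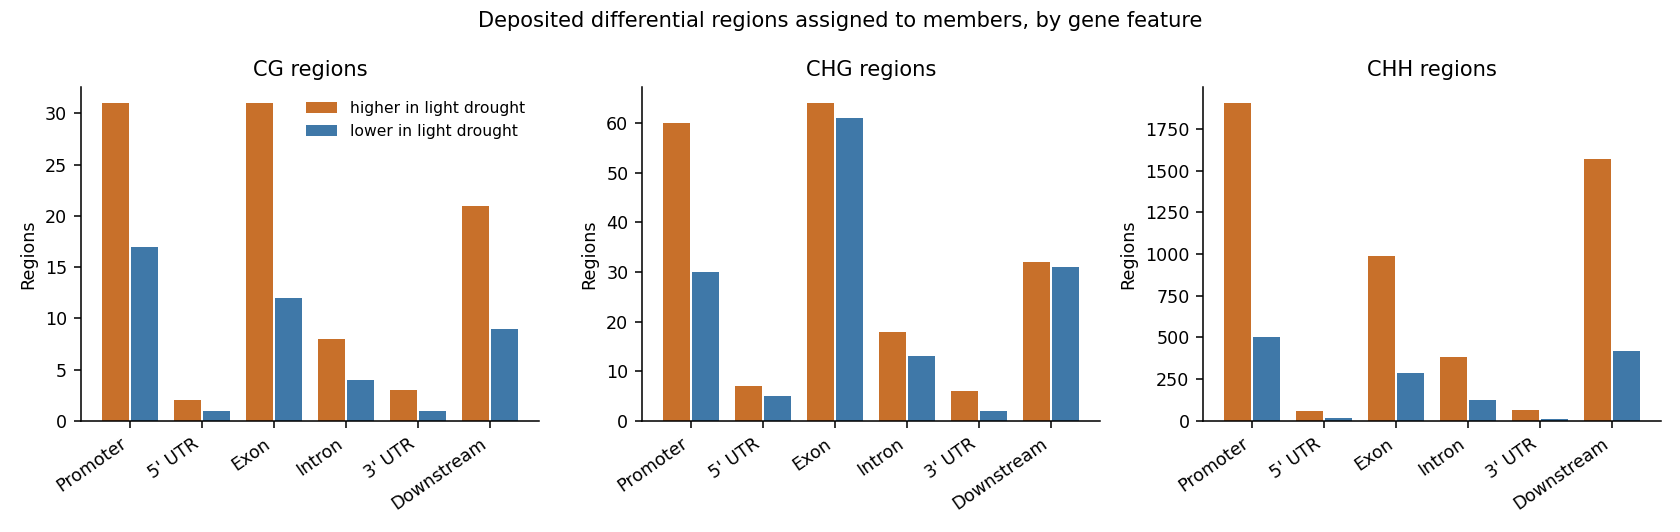
Number of deposited regions (y axis) assigned to CHH-rich genes by gene feature (x axis) in CG, CHG and CHH, with regions higher under light drought in orange left of regions lower under light drought in blue. A region that touches several features is counted in each, and the y axes differ. Exonic CHG regions are balanced at 64 and 61, while exonic CHH regions are 987 and 290.

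A corrected p-value under 0.05 was given for 7 regions at CHH-rich genes, 4 of 6023 in CHH, 3 of 283 in CHG and 0 of 126 in CG. Over all regions of the authors' deposited tables it was given for 223 of 82479 in CHH, 17 of 3250 in CHG and 23 of 2782 in CG. These p-values compare cytosines of 2 libraries and not trees, and coordinates are in the authors' build, for which no source here gives a name. The lowest corrected p among them in the authors' deposited table, 0.00011, belonged to a CHH region of 27 cytosines in the promoter of orange1.1t02479, at 37918111 to 37918259 of the unplaced sequence, higher under light drought by 71.0 points. The promoter CHH level of this gene was 24.6% under light drought, against 14.8% under normal water, and its exon CHH 32.2% and 26.5%. In the authors' deposited table the CHG region of 19 cytosines in an exon of Cs9g07170, on chromosome 9 at 4480403 to 4480587, had a difference of -45.5 points and was given a corrected p of 0.0202. Exons of Cs9g07170 were lower under light drought in all contexts, at 39.4% against 74.3% under normal water in CHG, 33.7% against 54.4% in CG and 8.63% against 18.0% in CHH. Downstream CHG of this gene stood at 86.6% and 85.8%.

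Both other CHG regions lay in downstream flanks. In the authors' deposited table that of orange1.1t01974, at 31261143 to 31261318 of the unplaced sequence, had a difference of -50.5 points and a corrected p-value of 0.00562. Downstream CHG of this gene was 10.2% under light drought, against 50.0% under normal water, while exon CHG was 82.5% and 80.5%. The authors' deposited table puts the region of Cs2g16670 on chromosome 2 at 13518995 to 13519210, with a difference of 38.8 points and a corrected p-value of 0.0209, and it also lies downstream of Cs2g16660. Downstream CHG of Cs2g16670 was 32.7% under light drought, against 0.44% under normal water, and exon CHG 66.5% and 48.7%. The remaining CHH regions were higher under light drought in the authors' deposited table, by 38.8 points in the promoter of Cs7g16550, 28.4 points downstream of Cs4g13480 and 30.5 points in an intron of Cs1g08920. Promoter CHH of Cs7g16550 was 24.0% under light drought, against 11.3% under normal water, and its exon CHH 17.1% and 9.02%. Downstream CHH of Cs4g13480 was 39.3% and 30.1%.

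Many regions in a gene did not mean a low corrected p. Cs4g11280, on chromosome 4, held the most CHH regions of the set, 27 between 7979905 and 7984220, of which 20 were higher under light drought and 7 lower, and the lowest corrected p among them in the authors' deposited table was 0.581. Its exon CHH was 28.5% under light drought, against 24.4% under normal water, and its downstream CHH 42.5% and 31.6%. The gene orange1.1t02086 held 24, of which 21 were higher and 11 lay in introns, with downstream CHH of 45.2% and 34.4%. Cs1g07580 held 19, of which 18 were higher and 11 lay in exons, with exon CHH of 43.8% under light drought, against 36.1% under normal water and promoter CHH of 43.1% and 33.7%. There were 55 CHH-rich genes with 10 or more CHH regions, and the median among those with any was 2. The share of all genes with as many was not counted.

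Some of the genes nearest to the limits of the rule were listed at 0 in 1 library. An average exactly on a limit can arise from such a 0, and the share of zeros near the limits was not counted. Just inside in CHG stood Cs9g11400, with exon CHG of 0 under light drought, against 40% under normal water, orange1.1t05084 with 40% and 0, and Cs7g06090 with 21.6% and 18.6%. Just outside stood orange1.1t05009, with 15.4% and 24.1%, Cs8g19050 with 19.8% and 19.6%, and orange1.1t03026 with 39.0% and 0. For CHH, Cs1g03930 (9.13% under light drought, against 10.9% under normal water), Cs2g11180 (20.0% and 0) and Cs5g21590 (0 and 20.0%) averaged 10% and lay just inside, and orange1.1t05330 (13.3% and 6.72%), Cs3g05630 (11.3% and 8.62%) and orange1.1t04417 (12.7% and 7.32%) just outside. In all, exon CHH was 0 in 1 library in 50 genes of the set and exon CHG in 80.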

How the data were processed

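Genomic DNA of both libraries was bisulfite-converted and sequenced, with the EZ DNA Methylation-Gold and Accel-NGS Methyl-Seq kits on a NovaSeq instrument, per the labels' protocols. Named tools, per the submitters' processing notes, are bedtools 2.26.0, Bismark 0.20.1 and SAMtools 1.4, with no role given. For the genome build, annotation, coverage filter, conversion rate, flank distances and region caller, none of these sources has an entry (not given in the sources used here). Each library has 1 table that the authors deposited, of methylation levels in percent per gene feature and context, per the file headers. They also deposited 3 tables of regions with a p-value, a corrected p-value and a signed difference in points, used as a score. The direction, light drought minus normal water, was read from the order of names in these tables. Their 6 columns of levels per group match no library's label and were not used. Starts were read as counted from 0 and printed counted from 1, because the deposited overlap equalled end minus start in 98.9% (CG), 97.5% (CHG) and 97.9% (CHH) of regions in 1 feature.

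The 29138 genes listed for light drought and 29131 for normal water share 29073. Levels were averaged for the rule and subtracted for differences, with pandas 2.3.3 and numpy 2.4.6 under Python 3.11.15, and plotted with matplotlib 3.10.9. The rule and the size count were tested on simulated data. The members, lists and sets were chosen with earlier results of these data known. Genes named are those with the 5 highest exon CHH averages, the 5 largest exon CHH differences in each direction, the 3 largest promoter CHH differences in each direction, the 3 with most CHH regions, up to 6 with a corrected p under 0.05, the 3 with least flank CHG, and the 3 on each side of each threshold. Other genes named were chosen after their values were seen. Alternatives varied the thresholds, the size, the treatment of zeros, the average and the centring. Depth per library is unknown.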

Additional observations from a re-analysis of the deposited data

How the results depend on the processing

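No paired analysis was possible because light drought and normal water were each measured once, which also bars leaving a library out. With no spread between replicates, a change beyond 1.5 times was taken as a move. There were 103 alternative values, of which 48 stayed within this, 54 moved and 1 turned its sign. Many of the moves are counts at another size or subsets of the deposited regions, which a wider or narrower limit must raise or lower. The cause of the other moves was not tested. The sign change was exon CG, -0.30 points with stricter thresholds of 30 and 20%. Exon CG also became 0 as a median, 0.418 points above 0 in both libraries and 0.14 points with the thresholds passed in each library. With the stricter thresholds, 1288 genes remained in the set, exon CHG was -0.228 points and promoter CG 0.0864 points. Promoter CG became 0.17 points as a median. With the median difference of all genes subtracted from the mean, promoter CHH was 1.38 points and promoter CG 0.327 points, which sets a mean beside a median. The mean differences over all genes, 2.40 points in promoter CHH and 1.41 points in promoter CG, were larger than those of the CHH-rich genes, 2.33 and 0.577 points. Intron CHH was 0 and promoter CHG 0 as medians, and intron CHH was 1.95 points above 0 in both libraries. The mean differences in exon CHH and downstream CHH moved under none of their 5 alternatives, and the number of genes moved under the stricter thresholds only.

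At 5 points, CHH counts were 601 higher and 169 lower in exons, 587 and 91 in promoters, and 527 and 116 downstream. At 15 points they were 84 and 37, 62 and 21, and 51 and 24. At 10 points exon counts were 190 and 216 in CHG and 205 and 185 in CG, and at 30 points 47 were higher in CHG and 54 in CG. Above 0 in both libraries, 16 promoters and 32 downstream flanks were lower in CHH, and exon counts were 34 and 44 in CHG and 46 and 38 in CG. Regions of at least 30 points, or 20 in CHH, were 9 higher with 6 lower for CG, 10 with 8 for CHG, and 1879 with 384 for CHH. With a corrected p under 0.05 they were 0 and 0 for CG, 1 and 2 for CHG, and 4 and 0 for CHH. Regions assigned to an exon, with no limit on p or size, were 31 and 12, 64 and 61, and 987 and 290 in the same order.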
